A study of Mus musculus with 10 samples.

Results

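The genes described here were the amino acid response program that the transcription factor Atf4 drives, together with the cytosolic aminoacyl-tRNA synthetases. The set held 40 named mouse genes out of 30677 gene identifiers in the count table, and all 40 were found under their symbols. They comprised 11 stress regulators and effectors, 10 amino acid synthesis enzymes, 6 amino acid transporters and 13 synthetases. The genes were listed by function, but the list was written with the levels under MB-3 and DMSO already known, so it was chosen by those measured values, and their differences between MB-3 and DMSO are given as a description with no p-value. The number of them that a test over all genes called is set beside the share of all genes called, and nothing is read from it.

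The study asked how loss of Kat2a activity changes gene expression and histone acetylation in mouse embryonic stem (ES) cells. The cells were TNGA cells, an ES cell line in which 1 allele of Nanog carries a green fluorescent protein reporter. They were grown with serum and leukaemia inhibitory factor (LIF), and received for 48 hours either 100 µM MB-3, an inhibitor of the histone acetyltransferase Kat2a (Gcn5), or the vehicle dimethyl sulfoxide (DMSO). All cultures, treated and control, held DMSO at 0.1% of the volume. RNA was sequenced from 3 libraries per treatment, lettered A, B and C, and acetylation of histone H3 at lysine 9 (H3K9ac) was mapped by ChIP-seq as 1 peak list per treatment. All libraries came from 1 cell line that carries a single intact Nanog allele, and the only agent was a chemical inhibitor.

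The 3 DMSO libraries held 48144367, 51137896 and 46863700 counts and the 3 MB-3 libraries 49334434, 44985772 and 42270312. At this depth 1 CPM (counts scaled to the normalized library size) stood for at least 42.9 reads, and the lowest value of any of the 40 genes in any library was 5.31 CPM. Pou5f1 lay between 650.4 and 716.7 CPM and Nanog between 242.5 and 274.1 CPM, both markers of ES cells. Markers of other cell types were present too, with summed levels of 6.72 to 10.8 CPM for 8 fibroblast genes, 8.18 to 12.8 CPM for 7 primitive endoderm genes and 50.8 to 284.7 CPM for 4 keratins of simple epithelium.

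Atf4 is translated when kinases that sense amino acid shortage, unfolded protein, haem shortage or viral RNA phosphorylate the initiation factor eIF2. The protein pairs with C/EBP partners at a composite site, the C/EBP-ATF response element, and switches on genes that make, import and charge amino acids onto tRNA. A second layer of targets, such as Ddit3 and Trib3, feeds back on the response or, when it lasts, links it to cell death.

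The core of that element, TGATGNAA, was searched on both strands in windows of 300 bases, from 250 before to 50 after each annotated start site (RefSeq, GRCm38.p6). A window was at hand for 30 of the 40 genes. A match stood in 12 of the 30 (40%), beside 4.51% of all 27025 genes with a window. The strict form TGATGCAA, which is contained in the first motif, stood in 9 of 30 (30%) beside 1.03% of all genes. By role, a match stood in 4 of 10 stress regulators and effectors, 2 of 9 synthesis enzymes, 1 of 4 transporters and 5 of 7 synthetases. It stood in 0 of 8 genes for cytosolic synthetases and scaffold proteins outside the set, in 0 of 14 genes for mitochondrial synthetases, in 0 of 11 Atf6 and Xbp1 response genes and in 0 of 7 paralogs of the stress effectors. It stood in 1 of 13 eIF2 genes, 1 of 8 other amino acid transporters and 1 of 13 other serine, glycine, one-carbon and proline enzymes. The following stretches show the matches in capitals with 10 flanking bases on each side, 5′ to 3′ on the gene's own strand, with GRCm38.p6 positions. They are shown because a match occurred in genes of every role, in the forward or the reverse orientation. Trib3, Asns and Gars hold a form other than TGATGCAA.
Chac1, chr2:119351039-119351066, plus strand: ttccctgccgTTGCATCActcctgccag
Vldlr, chr19:27216810-27216837, plus strand: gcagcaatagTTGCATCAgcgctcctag
Trib3, chr2:152344029-152344056, minus strand: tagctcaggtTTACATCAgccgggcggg
Asns, chr6:7693215-7693242, minus strand: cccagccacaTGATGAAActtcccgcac
Pycr1, chr11:120643834-120643861, minus strand: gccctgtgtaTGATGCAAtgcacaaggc
Slc7a11, chr3:50443643-50443689, minus strand: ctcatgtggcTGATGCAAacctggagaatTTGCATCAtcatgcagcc
Gars, chr6:55037961-55037988, plus strand: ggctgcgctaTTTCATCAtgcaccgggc
Iars, chr13:49682127-49682154, plus strand: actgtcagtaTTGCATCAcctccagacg
Tars, chr15:11399656-11399683, minus strand: aggagtcccgTTGCATCAgctggttagc
Yars, chr4:129189896-129189923, plus strand: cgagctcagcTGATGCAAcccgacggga

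The transporter gene Slc7a11 held 2 matches in opposite orientation, 47 and 66 bases before its start site. In Asns, the textbook example of an amino acid response element, the match read TGATGAAA and lay 23 bases before the start. Matches in Trib3, Iars and Yars lay just after the start. The 250 bases before the start of Nupr1, the gene with the lowest level under MB-3 relative to DMSO, are shown whole because they hold a strict match, in capitals, 110 bases before the start.
Nupr1, chr7:126625471-126625720, minus strand: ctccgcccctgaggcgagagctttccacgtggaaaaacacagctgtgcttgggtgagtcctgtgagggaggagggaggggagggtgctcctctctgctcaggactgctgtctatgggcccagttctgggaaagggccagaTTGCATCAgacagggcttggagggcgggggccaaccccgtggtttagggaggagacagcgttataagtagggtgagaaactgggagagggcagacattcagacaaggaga

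**Figure D1:**
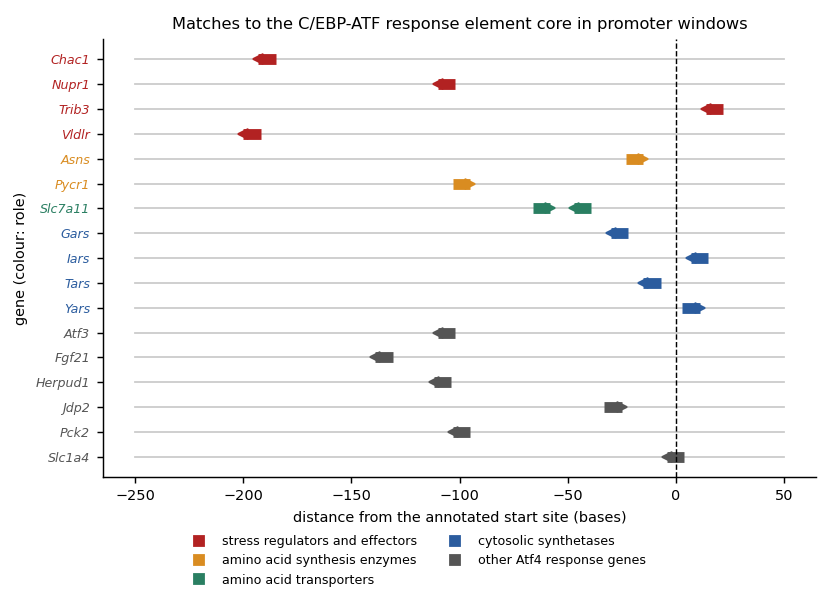
Position of each match to TGATGNAA (blocks, arrowheads giving the strand) in the promoter windows of 11 of the 40 genes and of 6 other Atf4 response genes, against the distance from the annotated start site in bases. Matches lay from 200 bases before to 14 bases after the start, and Slc7a11 held 2.

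A match to these letters is a description of the sequence and does not show that a factor binds there. In a separate list of 15 other genes known to respond to Atf4, written from textbook roles, 6 of 14 genes with a window held a match (42.9%). With the letter as block, as described later, Cebpg, Gdf15 and Gpt2 were also called lower under MB-3 but held no match. Slc1a5 was called lower too and had no window, and Fgf21 held a match but was not called. The stretches of the other 5 genes with a match, whose RNA was called lower in that fit, are given.
Atf3, chr1:191183426-191183453, minus strand: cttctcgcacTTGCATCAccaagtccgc
Jdp2, chr12:85599373-85599400, plus strand: tagccggggcTGATGCAAcccgtcccgc
Herpud1, chr8:94386307-94386334, plus strand: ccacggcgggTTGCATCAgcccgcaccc
Pck2, chr14:55540153-55540180, plus strand: gccttcaaagTTACATCAgtatcttaca
Slc1a4, chr11:20332700-20332727, minus strand: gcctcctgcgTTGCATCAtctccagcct

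Across the 40 genes, the mean level was lower under MB-3 than under DMSO for 35 and higher for 5. The median log2 fold change was -0.21, beside -0.00 over all 20027 genes tested, and single genes ranged from -0.83 (Nupr1) to 0.10 (Slc38a2). The median was -0.46 for the stress regulators and effectors, -0.23 for the synthesis enzymes, -0.14 for the transporters and -0.11 for the synthetases. With single libraries or letters left out, these medians ran from -0.58 (without DMSO library B) to -0.23 (without DMSO library C) for the stress genes, -0.30 to -0.17 for the enzymes, -0.23 (without MB-3 library C) to -0.07 (without MB-3 library B) for the transporters and -0.17 to -0.08 for the synthetases. Without MB-3 library B, or without letter B in the blocked fit, the transporters stood nearer to 0 than the synthetases, and no test compared the roles. In bulk RNA, fewer cells expressing a gene and less RNA per cell cannot be told apart.

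**Figure D2:**
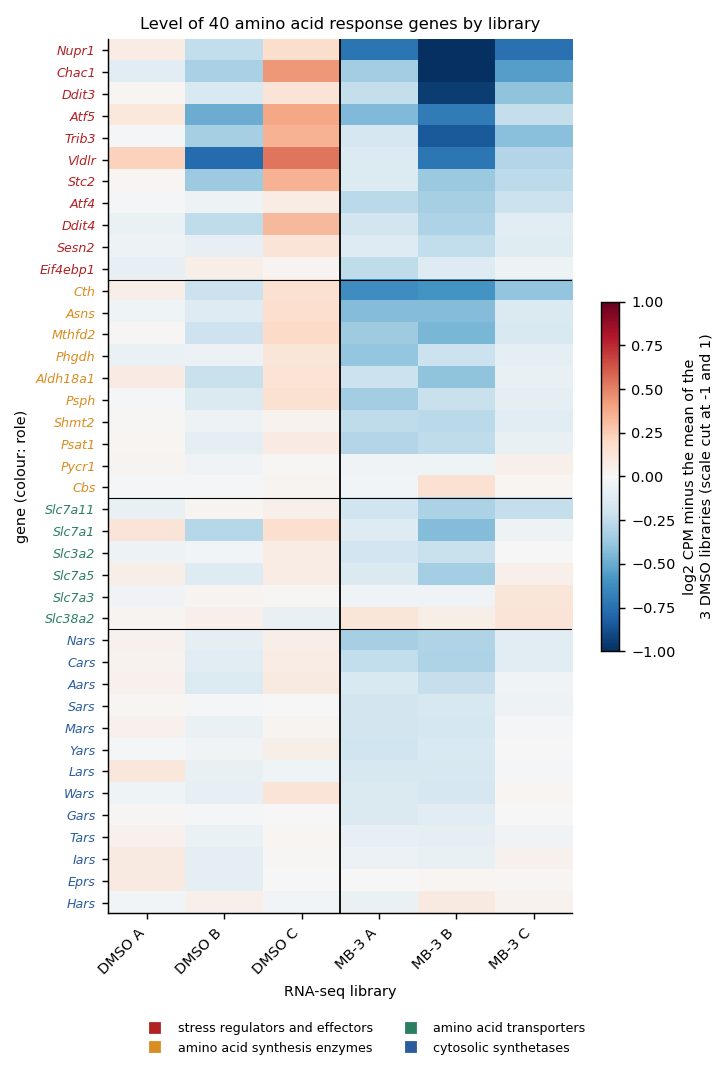
Heat map of the 40 genes (rows, grouped by role and ordered by fold change) in the 6 RNA-seq libraries (columns), as log2 CPM minus the mean of the 3 DMSO libraries, with the colour scale cut at -1 and 1. Blue, meaning lower than DMSO, was on average over the MB-3 libraries deepest for Nupr1 and Chac1 and pale for the synthetases.

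Every MB-3 library lay below every DMSO library for 12 of the 40 genes, where 7.37% of all tested genes did so, and above for 1 gene, Slc38a2, where 8.22% did so. Since libraries with the same letter deviated together, they were also compared letter by letter. MB-3 was below DMSO in all 3 letters for 31 of the 40 genes, where 20.3% of all tested genes were. With treatment as the only term, the quasi-likelihood test of edgeR, adjusted by Benjamini-Hochberg, called 2 of the 40 lower at an adjusted p under 0.05, Nupr1 and Cth, where 0.105% of all genes were called lower. With the letter as block it called 25 of the 40 lower and 0 higher, where 3.90% of all genes were called lower. Because the genes were listed with this contrast known, nothing is read from these shares. The count of 2 (of 41 over all genes) became 0 (of 3) without DMSO library A, 15 (of 520) without DMSO library B, 1 (of 5) without DMSO library C and 0 (of 0) without MB-3 library A or B. The blocked fit called 17 of 939, 20 of 912 and 24 of 1037 genes with letter A, B or C left out. In the 3 fits with 0 calls among the 40, 18, 14 and 12 of the 40 genes had an unadjusted p under 0.05, as did 2458, 1440 and 1716 of all genes.

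**Figure D3:**
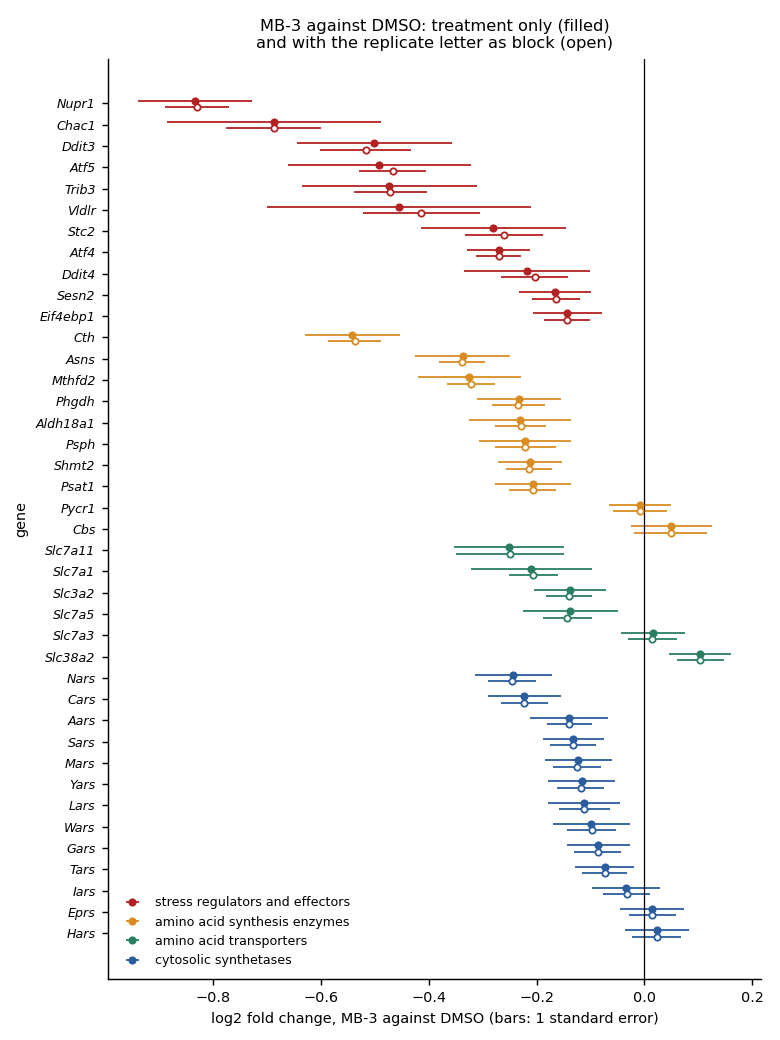
Log2 fold change of MB-3 against DMSO (x axis) for each of the 40 genes (y axis), with bars of 1 standard error, from the fit with treatment only (filled) and with the replicate letter as block (open). The estimates of both fits were close, and the block narrowed the bars most for Chac1, Atf5, Trib3 and Vldlr.

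All 11 stress regulators and effectors had a lower mean under MB-3. Nupr1, a small chromatin-associated stress protein (chr7:126623249-126630861, GRCm38), measured 33.9, 27.1 and 36.4 CPM in DMSO libraries A, B and C and 19.4, 16.03 and 19.2 CPM in MB-3 libraries A, B and C. Its log2 fold change was -0.83 ± 0.11 (SE, n = 3 against 3). The groups did not overlap, and each letter gave a difference of similar size, from -0.92 to -0.76 on the log2 scale. Chac1 (chr2:119351229-119354381), whose enzyme breaks down glutathione, measured 21.9, 18.9 and 32.1 CPM with DMSO and 18.6, 10.3 and 16.2 CPM with MB-3. Its groups were separated by a narrow margin, since MB-3 library A nearly reached DMSO library B, and its log2 fold change was -0.69 ± 0.20 (SE).

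Atf4 itself (chr15:80255184-80257541) measured 363.3, 355.0 and 386.6 CPM with DMSO and 306.0, 293.2 and 316.8 CPM with MB-3, without overlap. Its log2 fold change was -0.27 ± 0.06 (SE), and the 3 letters gave -0.25, -0.28 and -0.29. The means were 368.3 ± 16.4 and 305.3 ± 11.8 CPM (SD, n = 3 each). Atf5, a related factor that also takes part in the mitochondrial stress response, measured 48.9, 32.1 and 59.3 CPM with DMSO and 33.3, 28.0 and 38.5 CPM with MB-3. The Atf5 groups overlapped because DMSO library B was low.

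Ddit3, which encodes the factor CHOP, measured 14.3, 12.6 and 15.4 CPM with DMSO and 11.9, 7.29 and 10.7 CPM with MB-3. Every MB-3 library was below every DMSO library, and the log2 fold change was -0.50 ± 0.14 (SE), or -0.32 without MB-3 library B. Trib3, a pseudokinase that restrains Atf4, measured 61.8, 49.4 and 79.4 CPM with DMSO and 55.5, 34.9 and 46.8 CPM with MB-3. MB-3 library A exceeded DMSO library B, so the Trib3 groups overlapped, although the difference was negative in all 3 letters. Exons of Ddit3 lie opposite those of Mars and exons of Atf5 opposite those of Nup62 and Il4i1, and the use of strand in counting is not stated, so reads of these pairs may be shared.

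Vldlr, a lipoprotein receptor, was the least abundant effector per length. It measured 10.7, 5.36 and 13.2 CPM with DMSO and 8.32, 5.53 and 7.44 CPM with MB-3. It was the 1 gene of the 11 without a lower value in every letter, being 0.04 higher on the log2 scale in letter B. Stc2, a secreted glycoprotein, measured 29.5, 22.7 and 37.1 CPM with DMSO and 26.5, 22.5 and 24.4 CPM with MB-3. Here letter B differed by -0.01 and letter C by -0.60 on the log2 scale. The remaining effectors, Sesn2, Ddit4 and Eif4ebp1, which all act on mTORC1 signalling or its output, had log2 fold changes from -0.22 to -0.14.

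Among the synthesis enzymes, Cth stood apart. Cystathionine gamma-lyase, which forms cysteine, had 168.1, 138.8 and 178.9 CPM with DMSO and 104.8, 106.5 and 122.3 CPM with MB-3. The groups were well separated, with a log2 fold change of -0.54 ± 0.09 (SE). Cbs, the enzyme of the preceding step, measured 16.5, 16.5 and 16.9 CPM with DMSO and 16.4, 18.5 and 16.9 CPM with MB-3, and its groups overlapped. Its log2 fold change was 0.05 ± 0.08 (SE).

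Asns, asparagine synthetase, measured 361.6, 340.9 and 417.4 CPM with DMSO and 274.8, 275.2 and 336.3 CPM with MB-3. The highest MB-3 library, C, came close to the lowest DMSO library, B, without reaching it, and the log2 fold change was -0.34 ± 0.09 (SE). Mthfd2, which handles one-carbon units in mitochondria, measured 129.1, 110.7 and 146.4 CPM with DMSO and 100.2, 92.9 and 115.1 CPM with MB-3. Here MB-3 library C exceeded DMSO library B, and the log2 fold change was -0.33 ± 0.10 (SE).

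The serine branch showed smaller differences. Phgdh, which catalyses its first step, measured 69.3, 69.4 and 78.8 CPM with DMSO and 55.4, 62.3 and 67.6 CPM with MB-3, without overlap. Psph, its last step, measured 37.4, 34.1 and 41.8 CPM with DMSO and 29.6, 32.2 and 35.4 CPM with MB-3, with overlap. Their log2 fold changes were -0.23 ± 0.08 and -0.22 ± 0.09 (SE). Psat1, the step between them, and Shmt2, which turns serine into glycine in mitochondria, both had log2 fold changes of -0.21.

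In the proline branch, Aldh18a1, which acts first, measured 95.5, 77.3 and 99.0 CPM with DMSO and 77.8, 68.3 and 85.4 CPM with MB-3. DMSO library B lay within the MB-3 values, and the log2 fold change was -0.23 ± 0.09 (SE). Pycr1, which completes proline, had a log2 fold change of -0.01.

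The transporters were mixed. Slc7a11, the cystine importer, measured 6.27, 6.74 and 6.84 CPM with DMSO and 5.75, 5.31 and 5.62 CPM with MB-3. The Slc7a11 groups did not overlap, with a log2 fold change of -0.25 ± 0.10 (SE). Slc3a2, the shared heavy chain of several exchangers and the most abundant transporter per length, measured 258.3, 262.6 and 281.9 CPM with DMSO and 233.6, 229.3 and 266.9 CPM with MB-3. MB-3 library C lay within the DMSO range of Slc3a2, and its log2 fold change was -0.14 ± 0.07 (SE). Slc38a2, the neutral amino acid carrier SNAT2, went the other way, from 392.3 to 427.6 CPM with DMSO to 431.8 to 453.0 CPM with MB-3, at a log2 fold change of 0.10 ± 0.06 (SE). Of the other carriers, Slc7a1 was at -0.21, Slc7a5 at -0.14 and Slc7a3 at 0.02.

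The synthetases, which join each amino acid to its tRNA, had the highest summed level of the 4 roles, 4213 to 4581 CPM with DMSO. Of 13, 11 had a lower mean under MB-3 and 9 were lower in all 3 letters, where 20.3% of all tested genes were. Nars measured 623.0, 565.1 and 631.9 CPM with DMSO and 481.9, 492.2 and 563.4 CPM with MB-3, so its groups were barely separated. Its log2 fold change was -0.24 ± 0.07 (SE). Cars measured 186.9, 168.6 and 191.6 CPM with DMSO and 153.1, 147.0 and 168.7 CPM with MB-3, where MB-3 library C lay just above DMSO library B. Gars, the most abundant synthetase per length, measured 440.6, 430.5 and 437.9 CPM with DMSO and 393.9, 402.5 and 437.3 CPM with MB-3, and its log2 fold change was -0.09 ± 0.06 (SE).

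The bifunctional Eprs, which charges glutamate and proline, measured 461.4, 408.3 and 435.1 CPM with DMSO and 436.2, 440.2 and 440.4 CPM with MB-3. All MB-3 values of Eprs lay inside the DMSO range. Hars was at 0.02 and Iars at -0.03 on the log2 scale, and the remaining 7 synthetases lay between -0.14 and -0.07. Exons of Cars, Mars, Yars and Hars, and among the enzymes those of Psph and Shmt2, overlap a gene on the opposite strand.

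Levels were compared between genes per kilobase of merged exons, as the mean of the DMSO libraries. Atf4 stood highest of the regulators at 156.2 CPM per kilobase and Vldlr lowest at 0.970. Asns (136.5) and Psat1 (134.7) led the enzymes, whose lowest was Cbs at 2.23 CPM per kilobase. Slc3a2 at 75.8 and Slc7a11 at 0.475 CPM per kilobase bounded the transporters, and Gars (139.9) and Nars (139.3) led the synthetases, whose lowest was Eprs at 24.0. Scaled by the length of the longest principal transcript instead, Psat1 stood above Asns, Nars above Gars, and Hars in place of Eprs was the lowest synthetase.

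The libraries of one treatment also differed among themselves in a shared way. Within DMSO, library B was the lowest for 33 of the 40 genes (82.5%, beside 35.5% of all tested genes) and library C the highest for 28 (70.0%, beside 31.5%). Within MB-3, library C was the highest for 31 (77.5%, beside 34.8%) and library B the lowest for 26 (65.0%, beside 35.4%). Among the stress regulators and effectors, 10 of 11 were ordered C above A above B in DMSO. The spread was widest for Vldlr, with an SD of 0.64 on the log2 scale over the DMSO libraries, and for Atf5 at 0.45 and Chac1 at 0.38, and it was narrowest for Gars at 0.02. The median SD of the 40 genes was 0.10 in both treatments, beside 0.09 in DMSO and 0.07 in MB-3 for all genes at 5 CPM or more.

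**Figure D4:**
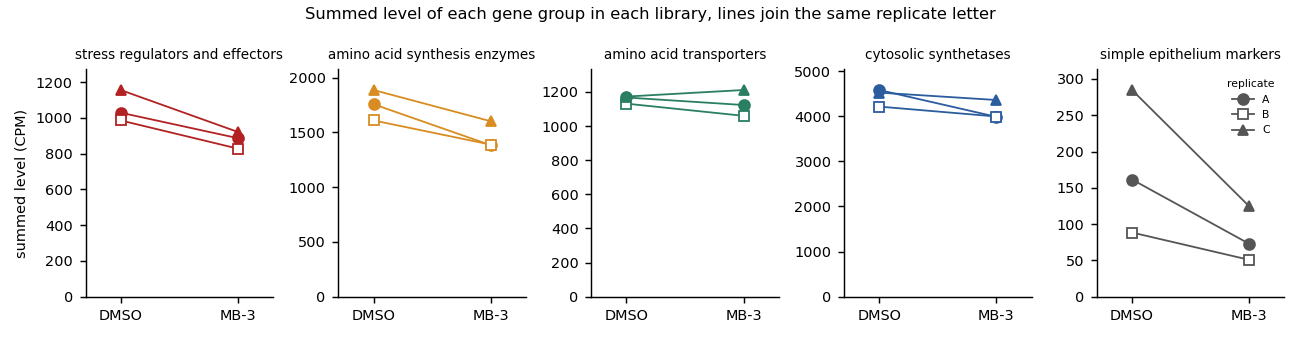
Summed level in CPM (y axis, from 0) of the genes of each role and of the simple epithelium markers in each library, with lines joining the DMSO and MB-3 libraries of the same replicate letter. All lines sloped down for the stress genes, synthesis enzymes and synthetases, whereas the transporters of letter C went from 1173 to 1211 CPM, and the keratin sum was highest in C and lowest in B in both treatments.

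Genes outside the set were taken from lists written by textbook role, but with earlier results of these data known, so their tests are not independent evidence. For 15 other Atf4 response genes, the median log2 fold change was -0.26 (-0.16 without MB-3 library B and -0.35 without DMSO library B), 12 had a lower mean, and 10 were lower in all 3 letters, where 20.3% of all tested genes were. With treatment as the only term edgeR called 0 of them, although 9 had an unadjusted p under 0.05 (2182 of all genes), DESeq2 called 4 lower (183 of all genes called) and limma-voom called 0. With the letter as block, 9 fell and 0 rose at an adjusted p under 0.05, where 3.90% of all genes fell, namely Atf3, Cebpg, Jdp2, Gdf15, Gpt2, Slc1a4, Slc1a5, Pck2 and Herpud1. With letter A, B or C left out, the blocked fit called 9, 7 and 7, beside 939, 912 and 1037 of all genes. The treatment-only fit called 7 lower without DMSO library B, 1 without MB-3 library C and 3 without the filter on low counts, beside 520, 62 and 194 of all genes.

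Atf3, a factor induced by Atf4, measured 3.68, 1.79 and 6.46 CPM with DMSO and 1.79, 1.12 and 2.50 CPM with MB-3. It had the largest difference of the list, with a blocked log2 fold change of -1.09 ± 0.15 (SE) and an edgeR Benjamini-Hochberg adjusted p of 8.93e-06, against 0.274 without the block. Jdp2, a repressor of the AP-1 family, fell from 12.8, 8.47 and 13.5 to 6.79, 6.33 and 7.58 CPM. The Jdp2 groups did not overlap, and the adjusted p from edgeR was 1.85e-06 with the block and 0.0700 without it. Gdf15, a secreted stress cytokine, fell by 0.66 on the log2 scale (adjusted p from edgeR with the block, 0.00186).

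Pck2, the mitochondrial enzyme that feeds carbon into serine synthesis, fell from 35.8, 30.6 and 39.5 to 22.4, 21.8 and 28.9 CPM in libraries A, B and C. Its blocked edgeR adjusted p was 1.01e-07, and its groups did not overlap. Herpud1, which helps clear misfolded endoplasmic reticulum proteins, measured 20.2, 20.1 and 24.8 CPM with DMSO and 16.7, 14.1 and 16.8 CPM with MB-3. Its edgeR adjusted p was 3.10e-05 with the block. In this list, Xpot, Lonp1 and Ero1l had a higher mean under MB-3, by 0.06 or less on the log2 scale. These exceptions were named after their values were seen.

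**Figure D5:**
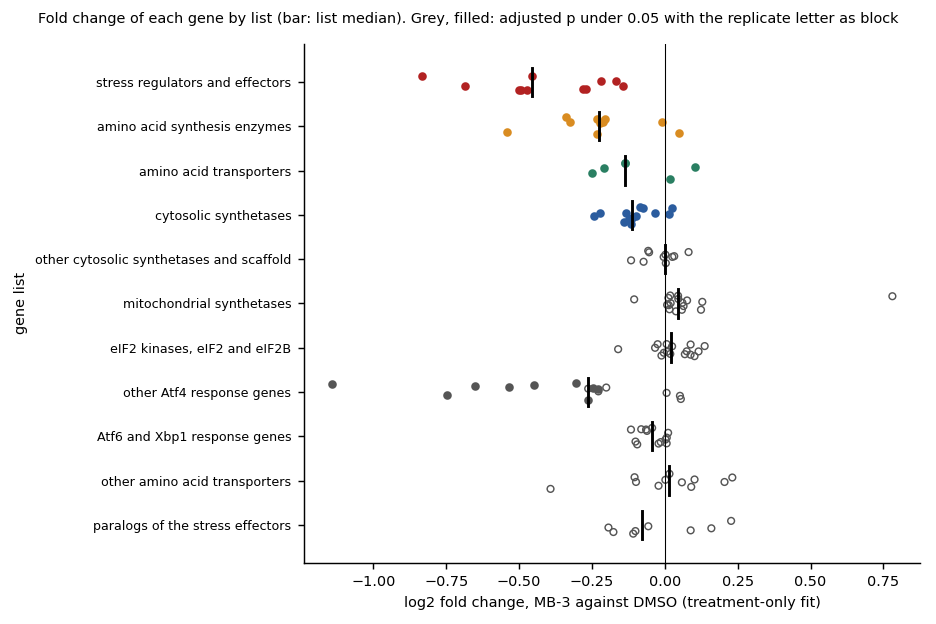
Log2 fold change of MB-3 against DMSO (x axis, fit with treatment only) for each tested gene of the 4 role groups (coloured) and of 7 other lists (grey), with a black bar at each list's median. Grey points are filled where edgeR's adjusted p with the letter as block was under 0.05, which held for 9 of the other Atf4 response genes.

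The 16 genes for eIF2 kinases, eIF2 and its exchange factor eIF2B had a median log2 fold change of 0.02, and 0 were called by edgeR with or without the block, by DESeq2 or by limma-voom, while 2 had an unadjusted p under 0.05. With letter A left out, the blocked fit called Ppp1r15a lower. The 4 kinases lay between 0.07 and 0.12 on the log2 scale, and Ppp1r15a, the phosphatase subunit that reverses the response, at -0.16. The 13 Atf6 and Xbp1 response genes, which stand for the other arms of the unfolded protein response and include Xbp1 itself, had a median of -0.04. For these, 0 were called by edgeR in either fit, by DESeq2 or by limma-voom and 0 had an unadjusted p under 0.05, although the blocked fit without letter C called Hspa5 lower.

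The 10 cytosolic synthetases and scaffold proteins outside the set had a median log2 fold change of -0.00, with 5 higher and 5 lower and 0 called by any of these 4 fits (0 with an unadjusted p under 0.05), although the blocked fit without letter B called Farsb lower. The 17 mitochondrial synthetases had a median of 0.05, with 16 higher, 1 lower and again 0 called by any of the 4 fits (1 with an unadjusted p under 0.05). Their widest difference was that of Lars2, at 135.5, 194.4 and 162.7 CPM with DMSO and 427.7, 331.6 and 86.3 CPM with MB-3. MB-3 library C was the lowest of the 6 for Lars2 and libraries A and B of MB-3 were the highest. Lars2 was called higher without MB-3 library C, and by the blocked fit without letter C.

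In 11 other amino acid transporters and in 8 testable paralogs of the stress effectors, 0 were called by any of the 4 fits, with 2 and 0 at an unadjusted p under 0.05. The medians were 0.02 and -0.08, and the blocked fit without letter C called 1 transporter, Slc43a1, higher. Ppp1r15a, Hspa5, Farsb, Lars2 and Slc43a1 were singled out after their values were seen.

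Markers of cell type were read beside these differences. Of 8 ES cell markers, edgeR called 0 without the block (1 had an unadjusted p under 0.05, DESeq2 called 0 and limma-voom 0), and with it Utf1 rose by 0.28 on the log2 scale (adjusted p 0.00229). The treatment-only fit without DMSO library B also called Utf1 higher. The blocked fit without letter C called Dppa5a lower, a gene singled out after its values were seen. The summed level of the ES cell markers was 4583 to 5121 CPM with DMSO and 4638 to 4957 CPM with MB-3, and Dppa5a was the most abundant. Of 7 primitive endoderm markers, 5 could be tested and 0 were called by any of the 4 fits, with 0 at an unadjusted p under 0.05. Their sums were 8.71 to 12.8 CPM with DMSO and 8.18 to 9.98 CPM with MB-3, most of it Dab2.

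Of 8 fibroblast markers, 6 could be tested, and Col1a1 and Col1a2 fell with the block (edgeR adjusted p 0.00226 and 0.000120) from levels of at most 2.20 CPM. The fibroblast sums were 8.05 to 10.8 CPM with DMSO and 6.72 to 6.92 CPM with MB-3, Thy1 being the most abundant gene. Without the block edgeR called 0 of them, with 3 at an unadjusted p under 0.05, DESeq2 called 1 and limma-voom 0, while edgeR called 2 without DMSO library B and 2 without the filter on low counts. Of 4 keratins of simple epithelium, Krt8, Krt18 and Krt19 fell with the block and 0 were called with treatment as the only term and all libraries (3 had an unadjusted p under 0.05). The treatment-only fit called 2 of them without the filter on low counts, 3 without DMSO library B and 1 without MB-3 library C. Their sum was 161.5, 88.5 and 284.7 CPM in DMSO libraries A, B and C and 72.9, 50.8 and 124.5 CPM in MB-3 libraries A, B and C, with Krt18 the most abundant. In DMSO this sum had the order of libraries seen for the stress genes, C above A above B. Under MB-3 the keratin sum and the summed stress genes kept that order, as did Atf4, Atf5, Sesn2 and Ddit4 singly. Nupr1, Chac1, Ddit3, Trib3, Vldlr and Stc2 were instead highest in MB-3 library A, and Eif4ebp1 was lowest in it. The part of epithelial-like cells in the lower levels of the 40 genes was not tested.

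H3K9ac marks active start sites, and its peaks did not enter the choice of genes. The authors' own assignment of peaks to genes was at hand for a part of the genome only, and all positions are on mm9. In that part, 10 DMSO peaks belonged to 6 of the 40 genes, and 7 of the 10 overlapped no MB-3 peak, where 64.2% of all 11724 DMSO peaks overlapped none. Both peaks at Ddit3 (chr10:126726836-126727350 and chr10:126727888-126728457), both at Ddit4 (chr10:59413751-59414526 and chr10:59415076-59415388), 1 at Shmt2 (chr10:126958523-126959436) and 1 at Stc2 (chr11:31268793-31269845) had no counterpart. Eprs kept 2 of its 3 peaks and Mars kept its 1 peak.

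These peaks were 313 to 1053 bp wide. Over the whole list, DMSO peaks without an MB-3 counterpart were narrower than those with one (median width 429 bp, and 794 bp). Peaks in the MB-3 list were assigned to Atf4, Slc38a2, Tars and Iars as well, so acetylation was present there under MB-3. The DMSO assignment at hand did not reach these genes, and their DMSO peaks were found only by overlap with those MB-3 peaks. A DMSO peak without a counterpart could therefore not appear at these genes, and whether any was lost there is not known. At Atf4, 1 DMSO peak of 1570 bp (chr15:80085668-80087237) faced 2 MB-3 peaks of 318 and 627 bp. At Slc38a2, a DMSO peak of 1563 bp faced 2 MB-3 peaks of 425 and 359 bp, and another of 816 bp faced 1 of 614 bp. At Iars a DMSO peak of 863 bp faced an MB-3 peak of 698 bp. At Tars the pairs were 691 and 796 bp, where the MB-3 peak was the wider, and 485 and 380 bp. Each list came from merged duplicates, so no replicate check of these peaks was possible, and the lists hold positions without heights.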

How the data were processed

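RNA-seq of 6 libraries was deposited by the authors as raw counts per Ensembl gene, from trimmed single-end polyA reads aligned to mm10 with Bowtie and counted at exons. Versions and the use of strand are not given in the sources used here. H3K9ac peaks were deposited as mm9 positions, called by the authors with MACS2 on merged duplicates aligned with BWA. No positions were converted, and 0 columns of other samples were left out.

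Symbols and GRCm38 coordinates came from GENCODE M21 (30540 of 30677 identifiers matched) and promoter windows from RefSeq. Counts were filtered by filterByExpr (20027 genes), normalized by TMM and tested with edgeR 4.0.16 (quasi-likelihood test, Benjamini-Hochberg adjustment, threshold 0.05) in R 4.3.3, with treatment as the only term and again with the replicate letter as block. Standard errors are those of the edgeR log2 fold change. The labels give letters A to C to both treatments. Deviations from the group means correlated by 0.18, 0.38 and 0.29 between libraries sharing a letter and by -0.30 to -0.02 otherwise (20027 genes), so the letters were taken to pair the libraries. The methods describe 3 treatments per condition, and the labels do not say whether these were separate cultures, so p-values measure the spread between these libraries, and 3 against 3 libraries cannot give an exact p below 0.10. Replicates differed beyond counting error (chi-square per gene 8.41 to 17.4). The steps were tested on simulated data.

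The 40 genes and all lists were chosen with earlier results of these data known. Values in every library are given for Atf4, for the 16 genes with the largest change among those called in either fit, and for the extremes of level in each role. From each other list, genes called without the block are named, up to 5 called with it are described (other calls are only listed), and exceptions chosen after their values were seen are said to be so. A DMSO peak was kept if an MB-3 peak overlapped it by at least 1 bp. Alternatives were the block, RLE normalization, no filter, DESeq2 1.42.0, limma-voom 3.58.1 and leaving out each library. A gene of these lists and a promoter stretch are not reported here.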

Additional observations from a re-analysis of the deposited data

How the results depend on the processing

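The numbers of calls depended on the model. The count of all genes called was 41 with treatment only, 1425 with the replicate block, 194 without a filter on low counts, 183 with DESeq2 and 18 with limma-voom. The count among the 40 genes was 2, 25, 5, 6 and 1 in the same order. The 41 genes were called again in the blocked fit, without the filter and by DESeq2, and 18 of them by limma-voom. With libraries or letters left out, the count over all genes ran from 0 (without MB-3 replicate A or B, where 1440 and 1716 genes had an unadjusted p under 0.05) to 1037, and that among the 40 genes from 0 to 24. The fits that leave out a letter from the block were added after the data were seen.

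Under leave-one-out the median log2 fold change of the 40 genes ran from -0.26 (without MB-3 replicate C) to -0.13 (without DMSO replicate C), and 3 to 7 of them had a higher mean under MB-3. Of 21 genes with values in every library, Eprs and Cbs changed sign under some alternatives and the other 19 did not, and 274 of 294 values lay within the SD of the letters, which is wide for the genes that moved most. The log2 fold change ran from -0.44 to -0.09 for Stc2, from -0.75 to -0.17 for Vldlr, from -0.70 to -0.29 for Atf5, from -0.64 to -0.28 for Trib3, from -0.93 to -0.44 for Chac1, from -0.66 to -0.32 for Ddit3, from -0.29 to -0.14 for Psph, from -0.33 to -0.15 for Aldh18a1, from -0.13 to -0.05 for Gars and from -0.21 to -0.10 for Slc3a2. The values nearest 0 came without letter C in the blocked fit for Stc2, without DMSO replicate C for Vldlr, Atf5, Trib3, Chac1 and Psph, and without MB-3 replicate B for Ddit3 and Aldh18a1. The strict motif left 9 of 12 genes, and requiring 50% of a DMSO peak to be covered, or an MB-3 peak within 1000 bp, left 2 or 4 of 10 peaks in place of 3. With 3 libraries per group, differences near 0.1 on the log2 scale were at the limit of a median standard error of 0.10. The cause of the dependence on single libraries was not tested.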
